A study of Oryza sativa Indica Group with 36 samples.

Results

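Rice seedlings of the cultivar DC907 that had spent 3 days at 8 ℃ were compared with DC907 seedlings that had not been cooled. The 6 libraries were taken by their labels: the 3 of DC907 after 3 days of cold (BT3) and the 3 of the DC907 control (BCK), of 36 libraries in the series. The other libraries are the uncooled control of the cultivar 9311, and DC907 and 9311 after 1 or 3 days of cold and after recovery at room temperature. DC907 and 9311 are described by the study as near-isogenic lines of indica rice, and the labels give NIL as the genotype of these samples. All plants were grown in nutrient solution to the stage of 4 leaves, and RNA came from stems and leaves together. The sources used here do not state how many plants went into a library, nor on which day the control plants of BCK were harvested, although a control was grown alongside the cold treatment. A difference in harvest day, if there was one, cannot be told apart from 3 days of cold. The study calls the 3 libraries of a treatment biological replicates. Since stems and leaves were sequenced as bulk tissue, fewer cells of a type and less RNA per cell cannot be told apart in any value given here.

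Rice is a plant of warm climates, and chilling slows its growth, disturbs photosynthesis and lets reactive oxygen species build up in its leaves. Plants meet cold with enzymes that remove peroxides, with sugars released from starch and trehalose, with hormones such as abscisic acid, which closes stomata and switches on stress genes, and with transcription factors that turn other genes on and off. The genes named here are those to which the study gave a function or a primer pair, together with the genes that changed most. No gene name was attached to the other identifiers, because none of the 43254 listed genes matched the reference gene table at hand, which is of japonica rice.

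The BT3 libraries held 16756587, 16766251 and 16617134 counts on genes, and the BCK libraries 16883714, 16349662 and 17917900. Levels are given as FPKM (fragments per kilobase of gene, scaled to the library total), the unit in which genes can be compared with each other. As a check of the cultivar label, 101 genes were taken that separate 9311 from DC907 in other libraries. Each BT3 library lay nearer to DC907 on 79.2 to 88.1% of them, and each BCK library on 75.2 to 95.0%. The 3 libraries labelled 9311 after 3 days of cold (AT3) also lay nearer to DC907, on 86.1 to 89.1%, so the check does not separate BT3 from that group, which is not used below. Markers of leaf and stem were not analysed here, since the identifiers carry no names. Across the 23290 genes tested, log2 CPM correlated at 0.90 to 0.97 within BT3, 0.84 to 0.88 within BCK and 0.63 to 0.78 between the groups, which describes the libraries and is no test. For genes that were higher in the cold, BCK replicate 2 stood closer to the cooled libraries than the other controls did. Over 2809 genes called higher in BT3 without it, at a log2 fold change of at least 2, it lay at a median of 36.8% of the way from the other 2 controls to BT3. BCK replicate 1 and replicate 3, placed in the same way, lay at -1.16% and -13.5%. For genes that were lower in the cold, BCK replicate 1 was the closest, at a median of 22.3% of the way, with BCK replicate 2 at 17.5% and BCK replicate 3 at 0.311%. The part of single controls in the results below was not tested beyond leaving each out.

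After 3 days of cold, 7898 of the 23290 tested genes (33.9%) differed from the control at an adjusted p under 0.05 in edgeR's quasi-likelihood test. Of these, 4002 (17.2%) were upregulated and 3896 (16.7%) were downregulated. The median log2 fold change of all tested genes was -0.09. The sizes of the rises and falls were alike in the middle and differed at the ends. The median size was 2.24 on the log2 scale among upregulated genes and 2.18 among downregulated genes. A change of at least 2 was reached by 2287 upregulated genes (57.1%) and 2258 downregulated genes (58.0%). A change of at least 5 was reached by 480 upregulated genes (12.0%) and by 114 downregulated genes (2.93%). These are fitted values, which depend on the prior count for genes at 0 counts in 1 group (70 upregulated and 6 downregulated). Upregulated genes had a median of 35.1 FPKM in BT3 and 7.38 FPKM in BCK, and downregulated genes had 4.65 FPKM in BT3 and 20.9 FPKM in BCK.

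**Figure D1:**
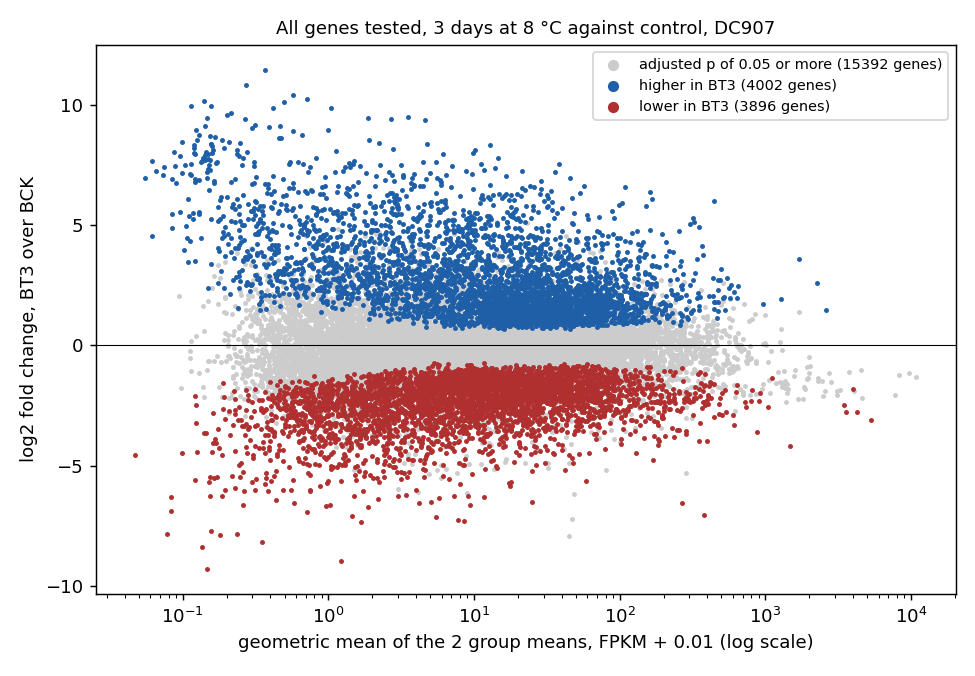
Each point is 1 of the 23290 tested genes; the horizontal axis is the geometric mean of its 2 group means in FPKM + 0.01 on a log scale, and the vertical axis is its log2 fold change, BT3 over BCK. The 4002 genes higher in BT3 reach further from 0 than the 3896 genes lower in BT3, as the counts at a change of at least 5 (480 and 114) show.

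The level of a gene in the control went with its direction. Among 2377 tested genes with a mean under 1 FPKM in BCK, 38.6% were upregulated and 3.45% downregulated. Among 3172 genes at 60 FPKM or more in BCK, 6.75% were upregulated and 30.3% downregulated. Because BCK values enter both the class and the fold change, these shares describe the data and are no test. At 1 FPKM or more in the group mean, 19432 genes were found in both groups, 1727 in BT3 only and 2276 in BCK only. The 2509 new genes, which the authors assembled from the reads outside the annotation, gave 1506 tested genes, with 16.3% upregulated, 22.8% downregulated and a median log2 fold change of -0.51. The 21784 tested genes of the annotation had 17.2% upregulated, 16.3% downregulated and a median of -0.07.

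The share of counts in the most abundant genes was compared between the groups. The 100 genes with the most counts took 15.8, 11.6 and 12.5% of the counts in the BT3 libraries and 30.0, 16.1 and 19.3% in the BCK libraries. The highest BT3 library lay just under the lowest BCK library, and the means were 13.3 ± 2.24% in BT3 and 21.8 ± 7.27% in BCK (SD, n = 3 each; two-sided exact permutation test, p = 0.1, the smallest that 3 against 3 can give). The difference of -8.48 percentage points became -4.39 without BCK replicate 1. For the 1000 genes with the most counts the groups overlapped (exact permutation test, p = 0.2). The number of genes at 1 FPKM or more was 20744 ± 741 in BT3 and 20851 ± 1287 in BCK (SD, n = 3 each), and the groups overlapped (exact permutation test, p = 0.9).

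The number of calls depended on single libraries. Without BT3 replicate 3 the count fell to 928 (691 higher and 237 lower in BT3), without BT3 replicate 2 it was 4200 and without BT3 replicate 1 it was 4982. Without BCK replicate 2 it was 7761, of which 6538 were among the 7898 of all 6 libraries. Genes with an unadjusted p under 0.05 (edgeR) numbered 10924 with all 6 libraries and 7887 without BT3 replicate 3. Of the 77 tested genes named here, 62 were called, beside 33.9% of all tested genes. A call was part of the rules for the largest changes, the largest new genes and the genes at 0 counts in 1 group. The share of named genes called is therefore no result about them. Of the 62, 27 were called in all 6 fits that left out 1 library. Without BT3 replicate 3, 35 lost the call, and the largest adjusted p among them was 0.18 (edgeR). For 17 of these 35 genes no other library had that effect.

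**Figure D2:**
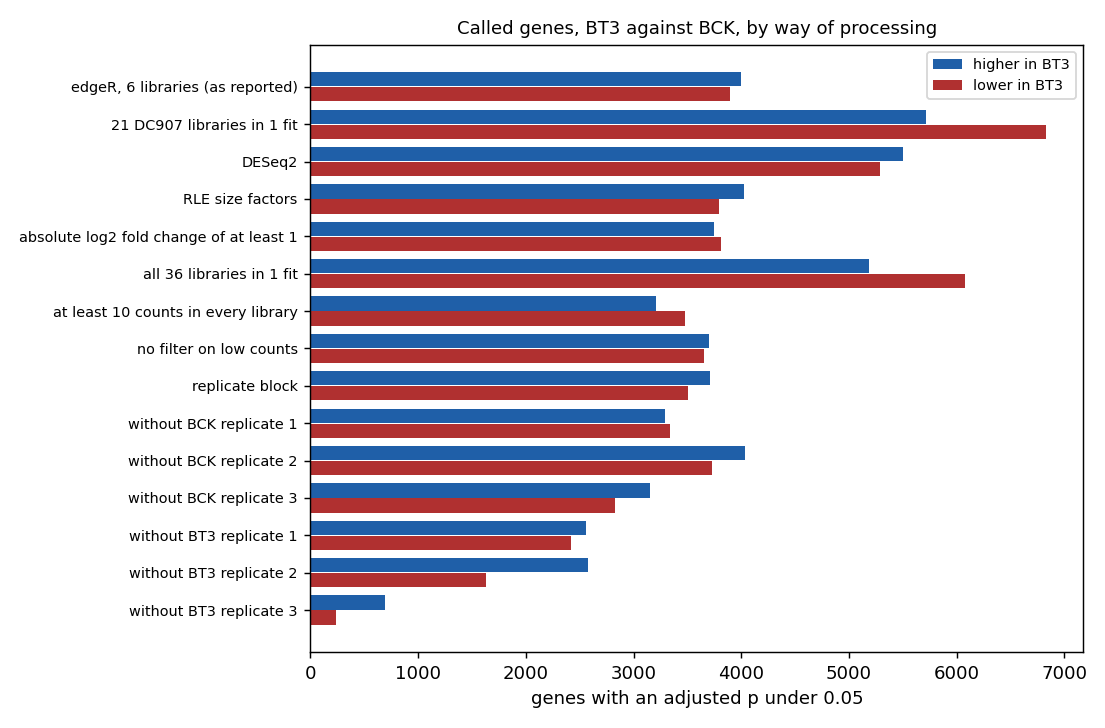
Bars give the number of genes with an adjusted p under 0.05, higher (blue) and lower (red) in BT3, for the fit of 6 libraries as reported (top) and for each other setting. The counts are lowest without BT3 replicate 3 (691 and 237), and the settings with more libraries or with DESeq2 give the largest.

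A function, or a place as a hub of a gene module, was known for 31 identifiers from the text of the study. Of these, 29 were tested. In BT3, 16 of the 29 were upregulated, 5 were downregulated and 8 did not pass the test, where 17.2% and 16.7% of all tested genes were upregulated and downregulated, and the median log2 fold change was 1.93 beside -0.09 for all tested genes. The same shares of all tested genes stand beside the counts against BCK of each group of genes below. The study chose them on these same samples, so their direction is not independent evidence. In 12 of the 16 upregulated genes BCK replicate 2 was the highest of the 3 controls. This was not counted over all upregulated genes, so it is no result about these 16.

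**Figure D3:**
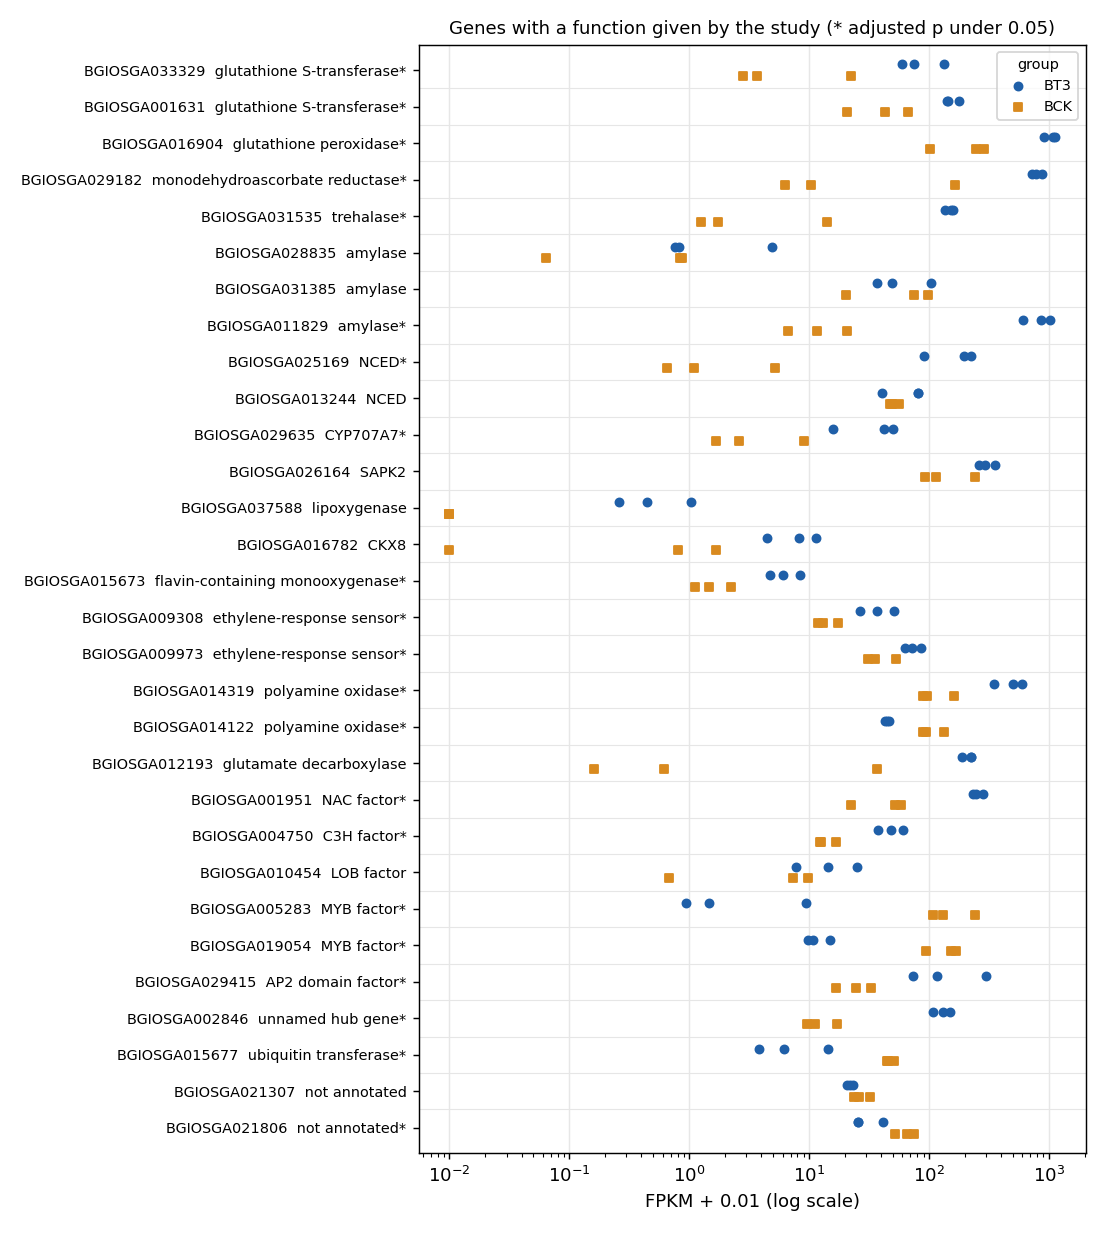
Levels in each library of the 30 listed genes with a function or a place in a gene module, in FPKM + 0.01 on a log axis, with the 3 BT3 libraries (blue circles) above the 3 BCK libraries (orange squares) of each gene; an asterisk marks an adjusted p under 0.05. BT3 lies to the right for the antioxidant genes, and to the left for both MYB factors and the ubiquitin transferase.

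The 4 antioxidant genes were all upregulated, with a median log2 fold change of 2.83. Glutathione peroxidase (BGIOSGA016904), which reduces peroxides with glutathione, had 1127, 917 and 1089.8 FPKM in BT3 and 246, 287 and 101 FPKM in BCK. Its lowest cooled library was above its highest control by a wide margin, with a log2 fold change of 2.33 ± 0.50 (SE; adjusted p = 0.017, edgeR). Monodehydroascorbate reductase (BGIOSGA029182), which regenerates ascorbate, had 719, 881 and 780.0 FPKM in BT3 and 10.4, 164 and 6.27 FPKM in BCK. The cooled libraries were close together and BCK replicate 2 was far above the other 2 controls, so that the log2 fold change of 3.92 ± 1.23 only just passed the test (adjusted p = 0.048). It became 6.41 without BCK replicate 2 (adjusted p = 0.0064), and the call was lost without any other single library, with adjusted p between 0.072 and 0.12. The glutathione S-transferases conjugate glutathione to toxic products. BGIOSGA033329 had 59.0, 133 and 75.0 FPKM in BT3 and 2.78, 22.3 and 3.66 FPKM in BCK, a log2 fold change of 3.33 ± 0.77 (adjusted p = 0.021). Again BCK replicate 2 was the highest control, and without it the change was 4.63. BGIOSGA001631 had 144, 177 and 141 FPKM in BT3 and 42.5, 67.3 and 20.7 FPKM in BCK, a log2 fold change of 1.85 ± 0.41 (adjusted p = 0.019). In all 4 genes every BT3 library lay above every BCK library, as in 25.4% of all tested genes; BT3 lay wholly below in 25.8%, so that 51.2% of the tested genes had groups that did not overlap. Without BT3 replicate 3 the calls of BGIOSGA016904, BGIOSGA033329 and BGIOSGA001631 were also lost (adjusted p of 0.073, 0.071 and 0.071). The call of BGIOSGA016904 was lost without BT3 replicate 1 (0.051), that of BGIOSGA001631 without BT3 replicate 1 or 2 (0.054 and 0.053), and that of BGIOSGA033329 without BT3 replicate 2 or BCK replicate 3 (0.060 and 0.051).

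Of the 4 genes of sugar release, trehalase and 1 of 3 amylases were upregulated and the other 2 amylases did not pass the test. The amylase BGIOSGA011829, an enzyme that breaks down starch, had 609, 1029 and 856 FPKM in BT3 and 20.6, 11.6 and 6.71 FPKM in BCK. Every cooled library was far above every control, at a log2 fold change of 5.92 ± 0.70 (adjusted p = 0.0057, edgeR), and the call held without each library in turn, at 5.58 to 6.62, with the highest value without BCK replicate 1. Trehalase (BGIOSGA031535), which splits trehalose into glucose, had 137, 158 and 152 FPKM in BT3 and 1.72, 13.95 and 1.25 FPKM in BCK. The cooled libraries were nearly equal and BCK replicate 2 was the highest control; the log2 fold change was 4.88 ± 0.95 (adjusted p = 0.013), 6.50 without BCK replicate 2, and the call was lost without BT3 replicate 3 (adjusted p = 0.058). The amylase BGIOSGA031385 had 103, 37.0 and 49.2 FPKM in BT3 and 97.5, 74.2 and 20.3 FPKM in BCK. Its groups overlapped fully, and the log2 fold change was 0.00 ± 0.71 (adjusted p = 1.0). The amylase BGIOSGA028835 stayed low, with 4.86, 0.751 and 0.816 FPKM in BT3 and 0.861, 0.830 and 0.0541 FPKM in BCK (log2 fold change 1.96 ± 1.16, adjusted p = 0.23, and 0.30 without BT3 replicate 1).

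Among the genes of abscisic acid, both a synthesis gene and a breakdown gene were upregulated. NCED, the epoxycarotenoid dioxygenase, catalyses the step that limits abscisic acid synthesis. BGIOSGA025169, an NCED gene, had 91.1, 195 and 222 FPKM in BT3 and 1.09, 5.14 and 0.639 FPKM in BCK. The lowest cooled library was many times the highest control, at a log2 fold change of 6.31 ± 0.88 (adjusted p = 0.0074, edgeR), 7.43 without BCK replicate 2, and the call held without each library in turn. The other tested NCED gene, BGIOSGA013244, had 80.2, 40.6 and 80.7 FPKM in BT3 and 48.7, 56.7 and 46.9 FPKM in BCK, so the groups overlapped (log2 fold change 0.44 ± 0.37, adjusted p = 0.38). CYP707A7 (BGIOSGA029635), of the cytochrome family that inactivates abscisic acid, had 50.3, 15.9 and 41.7 FPKM in BT3 and 9.10, 2.60 and 1.67 FPKM in BCK. BT3 replicate 2 was the lowest of the cooled libraries yet above every control, and the log2 fold change was 2.95 ± 0.88 (adjusted p = 0.042). It was 4.26 without BCK replicate 1, and the call was lost without any other single library, with adjusted p between 0.053 and 0.12. SAPK2 (BGIOSGA026164), a protein kinase of abscisic acid and osmotic stress signalling, had 357, 295 and 263 FPKM in BT3 and 239, 114 and 92.0 FPKM in BCK. The cooled libraries lay above the controls, but the log2 fold change of 0.98 ± 0.54 did not pass the test (adjusted p = 0.19). Without BCK replicate 1 it was 1.71 (adjusted p = 0.034). A further NCED identifier of the study was not analysed here.

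Of the other hormone genes, 3 of 4 tested were upregulated, beside 17.2% of all tested genes. The ethylene-response sensors are receptors that hold ethylene responses off until the hormone binds. BGIOSGA009308, a sensor, had 36.8, 26.7 and 51.3 FPKM in BT3 and 11.8, 17.5 and 12.9 FPKM in BCK, a log2 fold change of 1.48 ± 0.34 (adjusted p = 0.019, edgeR). The second sensor, BGIOSGA009973, had 63.2, 72.7 and 86.4 FPKM in BT3 and 35.2, 52.9 and 31.2 FPKM in BCK. Its groups were apart by less than its cooled libraries differed from each other, the log2 fold change was 0.92 ± 0.29 (adjusted p = 0.046), and the call was lost without each of the 6 libraries in turn (adjusted p of 0.056 to 0.18). The flavin-containing monooxygenase BGIOSGA015673, of a family with enzymes of auxin synthesis, had 4.69, 8.33 and 6.07 FPKM in BT3 and 2.21, 1.46 and 1.11 FPKM in BCK, a log2 fold change of 1.93 ± 0.46 (adjusted p = 0.022). That call held without BCK replicate 1 and was lost without any other library (0.052 to 0.089), and the call of BGIOSGA009308 was lost without BT3 replicate 1 or 3 (0.058 and 0.084). CKX8 (BGIOSGA016782), an oxidase that degrades cytokinin, had 11.3, 4.48 and 8.20 FPKM in BT3 and 0, 0.803 and 1.68 FPKM in BCK. The groups did not overlap, and the log2 fold change of 3.38 ± 1.20 did not pass the test (adjusted p = 0.069), but did so without BCK replicate 1 (2.82, adjusted p = 0.036) and in DESeq2 (3.44, adjusted p = 0.0077). The lipoxygenase BGIOSGA037588, of the enzymes that start jasmonate synthesis, had 8, 33 and 14 counts in BT3 (0.248, 1.02 and 0.438 FPKM) and 0 counts in each BCK library. It missed the filter on low counts in the fit of 6 libraries. In the 4 fits with 1 library left out and the 3 other settings that kept it, it was called higher in BT3. With 0 counts in every BCK library it could only be called higher, so these calls are no further support. It was at least 18.7-fold higher in BT3, taking a floor of 3 counts over the BCK group.

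The 2 polyamine oxidases, which break down polyamines and release hydrogen peroxide, moved in opposite directions. BGIOSGA014319, the first oxidase, had 346, 599 and 505 FPKM in BT3 and 96.8, 160.2 and 88.5 FPKM in BCK, a log2 fold change of 2.08 ± 0.38 (adjusted p = 0.012, edgeR). BGIOSGA014122, the other, had 44.5, 46.1 and 43.0 FPKM in BT3 and 94.3, 132 and 88.4 FPKM in BCK, a log2 fold change of -1.22 ± 0.26 (adjusted p = 0.017). In both genes the groups did not overlap. Without BT3 replicate 3 both calls were lost (adjusted p of 0.065 and 0.11), and that of BGIOSGA014122 also without BT3 replicate 1 or 2 (0.053 and 0.064). Glutamate decarboxylase (BGIOSGA012193), which makes the amino acid GABA from glutamate, had 224, 188 and 225 FPKM in BT3 and 0.601, 36.9 and 0.151 FPKM in BCK. BCK replicate 2 stood far above the other 2 controls. With it the log2 fold change of 4.33 ± 1.76 did not pass the test (adjusted p = 0.099), and without it the change was 8.97 (adjusted p = 0.0067). DESeq2 called the gene with all 6 libraries (4.36, adjusted p = 0.0058).

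Of the 6 transcription factors, 3 were upregulated, 2 were downregulated and 1 did not pass the test, beside 17.2% and 16.7% of all tested genes. The NAC factor BGIOSGA001951, of a family with many stress regulators, had 245, 232 and 283 FPKM in BT3 and 58.9, 52.1 and 22.6 FPKM in BCK, a log2 fold change of 2.49 ± 0.49 (adjusted p = 0.013, edgeR). The C3H factor BGIOSGA004750, a zinc finger protein, had 37.7, 61.1 and 48.2 FPKM in BT3 and 12.3, 16.7 and 12.6 FPKM in BCK, a log2 fold change of 1.82 ± 0.24 (adjusted p = 0.0065). For both factors the groups were well apart, and the call of the C3H factor held without each library in turn, whereas that of the NAC factor was lost without BT3 replicate 3 (adjusted p = 0.064). The AP2 domain factor BGIOSGA029415, of the family that includes the regulators of cold genes, had 296, 73.0 and 116 FPKM in BT3 and 24.5, 32.8 and 16.9 FPKM in BCK. BT3 replicate 1 was far above the other 2 cooled libraries; the log2 fold change was 2.80 ± 0.65 (adjusted p = 0.020) with it and 1.86 without it (adjusted p = 0.036), and the call was lost without BCK replicate 3 or BT3 replicate 3 (0.059 and 0.064). The LOB factor BGIOSGA010454 had 7.76, 25.2 and 14.5 FPKM in BT3 and 0.674, 9.75 and 7.26 FPKM in BCK and did not pass the test (log2 fold change 1.48 ± 0.82, adjusted p = 0.20).

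Both MYB factors, members of a large family of plant regulators, fell in the cold. BGIOSGA005283, a MYB factor, had 9.41, 0.933 and 1.45 FPKM in BT3 and 108, 131 and 239.8 FPKM in BCK. Its highest cooled library, BT3 replicate 1, was below every control, and the log2 fold change was -5.23 ± 1.08 (adjusted p = 0.015, edgeR), -7.13 without that library, with the call lost without BT3 replicate 3 (adjusted p = 0.069). BGIOSGA019054, the other MYB factor, had 14.8, 9.69 and 10.8 FPKM in BT3 and 93.9, 169 and 153 FPKM in BCK. The 3 cooled libraries were close together, the log2 fold change was -3.49 ± 0.35 (adjusted p = 0.0049), and the call held without each library in turn.

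Besides the NAC and LOB factors, 4 genes that the study proposed as candidate hubs of coexpression modules were examined, of which 1 was upregulated, 2 were downregulated and 1 did not pass the test. BGIOSGA002846, a gene without a name, had 108, 148 and 131 FPKM in BT3 and 11.1, 17.0 and 9.53 FPKM in BCK, a log2 fold change of 3.38 ± 0.28 (adjusted p = 0.0049, edgeR) that held without each library in turn. The ubiquitin transferase BGIOSGA015677, of the enzymes that mark proteins for degradation, had 14.5, 3.78 and 6.11 FPKM in BT3 and 44.4, 45.2 and 51.4 FPKM in BCK. Its controls were nearly equal and its cooled libraries spread, at a log2 fold change of -2.47 ± 0.59 (adjusted p = 0.022), -3.34 without BT3 replicate 1, and the call lost without BCK replicate 3 or BT3 replicate 3 (0.051 and 0.099). BGIOSGA021806, without annotation, had 25.5, 41.6 and 25.6 FPKM in BT3 and 52.3, 65.8 and 74.5 FPKM in BCK, a log2 fold change of -1.07 ± 0.27 (adjusted p = 0.025; lost without BCK replicate 3, BT3 replicate 1 or BT3 replicate 3, at 0.054, 0.072 and 0.13). BGIOSGA021307, also without annotation, had 20.8 to 23.1 FPKM in BT3 and 23.7 to 32.2 FPKM in BCK and did not pass the test (log2 fold change -0.29 ± 0.23, adjusted p = 0.36).

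The study designed primers for quantitative PCR on 14 genes. In the counts, 7 of the 14 were upregulated, 1 was downregulated and 6 did not pass the test, beside 17.2% and 16.7% of all tested genes, with a median log2 fold change of 2.09. These genes too were chosen on the same samples. The primer pairs are shown for the upregulated amylase, for the downregulated gene, and for BGIOSGA026730 and BGIOSGA016308. BGIOSGA026730 and BGIOSGA016308 were higher after 3 days of cold than after 1 day as well as than the control. The primers had no part in the counts and FPKM given here. They are whole primers, written 5′ to 3′, with no part set in capitals. Their positions in the genome were not analysed here.
BGIOSGA011829 forward: ggtactcgcagatgctcctggaac
BGIOSGA011829 reverse: cgtcgtggtgcctcgtgttgta
BGIOSGA026730 forward: actggctgctggtgctgatgtg
BGIOSGA026730 reverse: tgctcgtcatcgttgtgcttggt
BGIOSGA016308 forward: cgctccgatgacgctcttctacaa
BGIOSGA016308 reverse: ttagttgcctcggttgccatcctc
BGIOSGA002927 forward: accttgcctcgtcgtcgtcatc
BGIOSGA002927 reverse: ttgctcgccttgtcgccgtt

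The primer genes BGIOSGA026730 and BGIOSGA016308, shown above, have no name in the sources used here. BGIOSGA026730 had 991, 739 and 827 FPKM in BT3 and 45.5, 36.1 and 9.73 FPKM in BCK, a log2 fold change of 4.79 ± 0.78 (adjusted p = 0.0092, edgeR; 5.42 without BCK replicate 1 and lost without BT3 replicate 3, at 0.0504). BGIOSGA016308 had 71.7, 73.0 and 82.0 FPKM in BT3 and 0.836, 4.96 and 0.0984 FPKM in BCK, a log2 fold change of 5.40 ± 1.06 (adjusted p = 0.014; 7.15 without BCK replicate 2 and lost without BT3 replicate 3, at 0.061). In both genes the lowest cooled library was above the highest control by a wide margin. BGIOSGA002927, the primer gene that fell, had 4.35, 4.59 and 3.29 FPKM in BT3 and 41.6, 69.3 and 39.5 FPKM in BCK. The cooled libraries were nearly equal, and the log2 fold change of -3.58 ± 0.32 (adjusted p = 0.0049) held without each library in turn.

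Of the other primer genes, BGIOSGA029417 rose by a log2 fold change of 5.65 ± 1.03 (adjusted p = 0.012, edgeR), with 347, 64.3 and 128 FPKM in BT3 and 5.41, 1.12 and 4.16 FPKM in BCK. BT3 replicate 1 was the highest by far, and without it the change was 4.57. BGIOSGA022219 rose by 4.61 ± 1.05 (adjusted p = 0.020), with 48.9, 77.9 and 83.1 FPKM in BT3 and 6.06, 1.33 and 0.346 FPKM in BCK, and by 6.52 without BCK replicate 1. BGIOSGA013814 rose by 3.50 ± 0.69 (adjusted p = 0.014) and BGIOSGA012515 by 2.06 ± 0.56 (adjusted p = 0.032). For these 4 genes no cooled library lay below a control, and without BT3 replicate 3 the calls were lost (adjusted p of 0.051, 0.073, 0.061 and 0.11). BGIOSGA013814 stood at 4.17 without BCK replicate 2. BGIOSGA012515 stood at 2.78 without BCK replicate 1, and its call was lost without BCK replicate 2, BT3 replicate 1 or BT3 replicate 2 (0.078, 0.082 and 0.076). That of BGIOSGA022219 was lost without BT3 replicate 2 (0.053). The genes BGIOSGA007670, BGIOSGA028653, BGIOSGA014600 and BGIOSGA014893 did not pass the test, with log2 fold changes of 2.12 (adjusted p = 0.088), 1.44 (0.19), -0.19 (0.85) and -0.92 (0.17). Without BCK replicate 1, BGIOSGA007670 (3.01, adjusted p = 0.047) and BGIOSGA028653 (2.59, adjusted p = 0.033) passed it.

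Among genes with groups that did not overlap and a mean of at least 10 FPKM in the higher group, the 10 largest rises had fitted log2 fold changes of 9.37 to 11.48 and the 10 largest falls had -8.97 to -6.54. For 5 of the rises, which had 0 counts in every BCK library, the fitted value depends on the prior count and bounds are given below. The other 5 rises had log2 fold changes of 9.37 to 9.89. Their sizes chose them and are a description. Of the 10 rises, 5 were new genes of the authors' assembly. How reads were assigned by strand is not given in the sources used here, so reads of a new gene and of a gene that overlaps it cannot be told apart. Novel01837 had 56.8, 159 and 117 FPKM in BT3 and 0.0114, 0.505 and 0.0321 FPKM in BCK, a log2 fold change of 9.37 ± 1.44 (12.07 without BCK replicate 2). Novel01984 had 41.8, 88.2 and 73.2 FPKM in BT3 and 0.0849, 0.158 and 0.0480 FPKM in BCK, a log2 fold change of 9.43 ± 0.57. Both genes were well expressed in every cooled library and nearly silent in every control.

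Of these 10 rises, 5 had 0 counts in every BCK library. Novel02353 had 145, 423 and 512 counts in BT3 and 0 counts in every BCK library, and was at least 368-fold higher in BT3, with the floor of 3 counts over the group. BGIOSGA019346, an annotated gene without a name here, had 120, 280 and 125 counts in BT3 and 0 in every BCK library, and was at least 178-fold higher. BGIOSGA033416 had 299, 63 and 59 counts in BT3 and 0 in every BCK library, and was at least 143-fold higher, with most of its counts in BT3 replicate 1. BGIOSGA013251 and BGIOSGA030886 were at least 135-fold and 125-fold higher, and Novel00530, outside the 10, at least 72.4-fold. Without BT3 replicate 3 the calls of BGIOSGA033416, BGIOSGA013251 and BGIOSGA030886 were lost (adjusted p of 0.054, 0.078 and 0.061, edgeR), and that of BGIOSGA013251 also without BT3 replicate 1 (0.052). In all, 70 tested genes had 0 counts in the 3 BCK libraries and all 70 were called higher in BT3, while 6 had 0 counts in the 3 BT3 libraries and all 6 were called lower. Such genes passed the filter on low counts through the group in which they are high, so that they had to differ. BGIOSGA015986 had 0 counts in BT3 and 118, 67 and 44 counts in BCK, and was at least 75.4-fold lower in BT3. BGIOSGA009401, BGIOSGA007984, BGIOSGA037069 and BGIOSGA027737 were at least 42.9, 29.5, 24.5 and 14.8-fold lower in BT3. Without BT3 replicate 3 the calls of BGIOSGA037069 and BGIOSGA027737 were lost (adjusted p of 0.066 and 0.058).

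The highest level among the 10 largest falls was that of BGIOSGA025148, with 39.9, 15.7 and 25.9 FPKM in BT3 and 1841, 2608 and 3499 FPKM in BCK. All cooled libraries were low and all controls high, at a log2 fold change of -6.54 ± 0.67 (adjusted p = 0.0049, edgeR) that held without each library in turn. BGIOSGA001192 had 2.27, 4.28 and 1.27 FPKM in BT3 and 263, 225 and 223 FPKM in BCK, a log2 fold change of -6.54 ± 0.51 (adjusted p = 0.0049), also held without each library. BGIOSGA032365 had the largest fall, with 0.0986, 0.0328 and 0.0166 FPKM in BT3 and 43.0, 23.3 and 8.66 FPKM in BCK (log2 fold change -8.97 ± 1.06, -10.08 without BT3 replicate 1). Its 3 controls differed from each other several times over, while the cooled libraries held 6, 2 and 1 counts. The 3 new genes with the largest falls were Novel01291, Novel01510 and Novel01432, with log2 fold changes of -7.34, -5.24 and -4.45. Novel01432 had 8.76, 0.492 and 3.13 FPKM in BT3 and 153, 74.9 and 47.9 FPKM in BCK. All 3 calls were lost without BT3 replicate 3 (adjusted p of 0.053, 0.055 and 0.11), and that of Novel01432 without BCK replicate 1 (0.051).

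**Figure D4:**
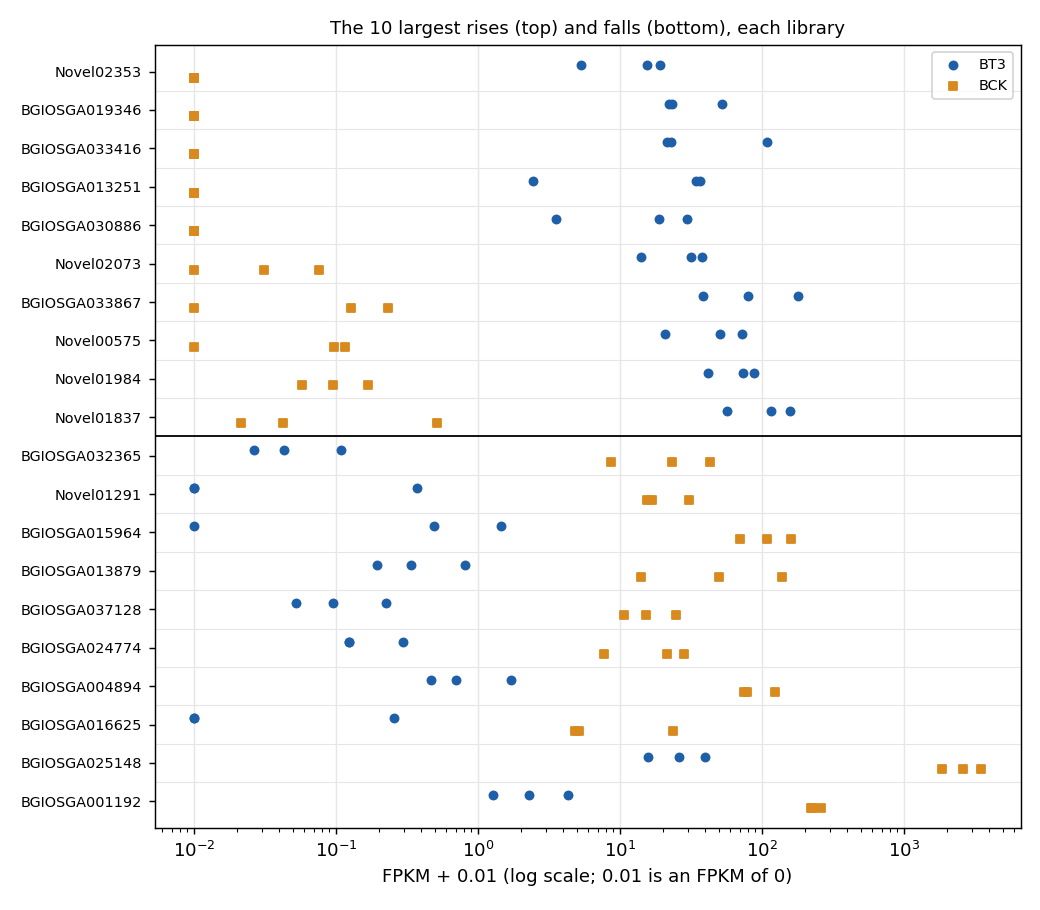
Levels in each library of the 10 genes with the largest rises (top) and the 10 with the largest falls (bottom), in FPKM + 0.01 on a log axis, where 0.01 stands for an FPKM of 0; BT3 libraries are blue circles and BCK libraries orange squares. The groups are apart for every gene shown, which the rule that chose them required, and the controls of the largest rises lie below 1 FPKM.

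The genes with the most counts in the cooled plants were mostly not those of the controls. The 5 genes with the most counts in BT3 and the 5 in BCK shared 1 gene, BGIOSGA018498, which had 14767, 1639 and 4313 FPKM in BT3 and 26313, 10469 and 14835 FPKM in BCK. BT3 replicate 1 lay within the range of the controls, and the gene did not pass the test (log2 fold change -1.30 ± 1.03, adjusted p = 0.36, edgeR). The other 4 of BT3 (BGIOSGA000971, BGIOSGA008338, BGIOSGA008607 and BGIOSGA011205) were upregulated, with log2 fold changes of 6.61, 6.38, 4.92 and 5.29. BGIOSGA008607 had 1892, 1952 and 1870.2 FPKM in BT3 and 60.9, 111 and 23.5 FPKM in BCK, and its cooled libraries were nearly equal. The other 4 of BCK had log2 fold changes of -2.76 (BGIOSGA025849, adjusted p = 0.043), -3.10 (BGIOSGA002563, adjusted p = 0.046), -2.08 (BGIOSGA037257, adjusted p = 0.14) and -2.20 (BGIOSGA003922, adjusted p = 0.15). The calls of BGIOSGA025849 and BGIOSGA002563 were lost without each of the 6 libraries in turn (adjusted p of 0.051 to 0.18), and that of BGIOSGA011205 without BT3 replicate 3 (0.062; 6.24 without BCK replicate 2). The lists rank genes by counts, which also rise with gene length, and the order in FPKM was different. BGIOSGA037257 and BGIOSGA003922, on the BCK list only, had means of 3706 and 2140 FPKM in BT3, with BT3 replicate 1 the highest. On the BT3 list only, BGIOSGA008607, BGIOSGA011205, BGIOSGA008338 and BGIOSGA000971 had 1905, 1894, 1424 and 1042 FPKM. BGIOSGA002563 and BGIOSGA025849 of the BCK list lay among these, at 1836 and 1656 FPKM in BT3. No name is given for these genes in the sources used here.

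The third day of cold differed from the first. Between BT3 and DC907 after 1 day at 8 ℃ (BT1, 3 libraries), 4003 of 22905 tested genes (17.5%) were called, 2130 (9.30%) higher and 1873 (8.18%) lower in BT3. This comparison shares the BT3 libraries with the comparison above. BT1 replicate 3 was the shallowest library, with 10176660 counts, and without it 5415 genes were called. The count fell to 217 without BT3 replicate 3, 657 without BT1 replicate 2, 1460 without BT3 replicate 2, 2085 without BT1 replicate 1 and 2530 without BT3 replicate 1. Of the 29 tested genes with a function from the study, 7 were higher and 8 were lower in BT3 than in BT1.

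Of the 4 genes of sugar release, 2 were higher and 1 was lower on the third day than on the first. Of all genes tested between BT3 and BT1, 9.3% were higher and 8.18% lower. Of the 4 antioxidant genes 1 was higher, the glutathione S-transferase BGIOSGA033329. It had 59.0, 133 and 75.0 FPKM in BT3 and 28.6, 16.6 and 17.8 FPKM in BT1, a log2 fold change of 1.97 ± 0.36 (adjusted p = 0.017, edgeR; lost without BT1 replicate 2 or BT3 replicate 3, at 0.071 and 0.074). Trehalase (BGIOSGA031535) had 137, 158 and 152 FPKM in BT3 and 7.09, 11.2 and 20.1 FPKM in BT1, a log2 fold change of 3.48 ± 0.40 (adjusted p = 0.0063, edgeR). The amylase BGIOSGA011829 had 609, 1029 and 856 FPKM in BT3 and 183, 101 and 135 FPKM in BT1, a log2 fold change of 2.49 ± 0.37 (adjusted p = 0.010). In both genes every library of day 3 was above every library of day 1, and BT1 lay between BT3 and BCK in its mean. The primer gene BGIOSGA026730 had 991, 739 and 827 FPKM in BT3 and 36.5, 15.9 and 8.19 FPKM in BT1, a log2 fold change of 5.32 ± 0.69 (adjusted p = 0.0078). Its BT1 libraries lay within or just below the range of the controls, 9.73 to 45.5 FPKM. CKX8 (BGIOSGA016782) had 11.3, 4.48 and 8.20 FPKM in BT3 and 0.152, 0.0386 and 0.0615 FPKM in BT1, a log2 fold change of 6.41 ± 0.70 (adjusted p = 0.0060). The calls of trehalase, BGIOSGA026730 and CKX8 held without each library in turn (6.05 for BGIOSGA026730 and 7.20 for BGIOSGA016782 without BT1 replicate 1). The call of BGIOSGA011829 was lost without BT1 replicate 2 or BT3 replicate 3 (adjusted p of 0.057 and 0.066).

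Other genes stood highest on the first day. The amylase BGIOSGA031385 had 103, 37.0 and 49.2 FPKM in BT3 and 290.1, 459 and 269 FPKM in BT1, a log2 fold change of -2.49 ± 0.53 (adjusted p = 0.025, edgeR). The NCED gene BGIOSGA013244 had 80.2, 40.6 and 80.7 FPKM in BT3 and 174, 159 and 197 FPKM in BT1, a log2 fold change of -1.44 ± 0.35 (adjusted p = 0.033). Against the control, neither gene passed the test at 3 days. The flavin-containing monooxygenase BGIOSGA015673 had 4.69, 8.33 and 6.07 FPKM in BT3 and 46.8, 44.3 and 31.4 FPKM in BT1 (-2.79 ± 0.32, adjusted p = 0.0061). The NAC factor BGIOSGA001951 had 245, 232 and 283 FPKM in BT3 and 678, 770.4 and 506 FPKM in BT1 (-1.46 ± 0.35, adjusted p = 0.033). Both stood above the control on day 3 as well. The call of BGIOSGA015673 was lost without BT3 replicate 3 alone (adjusted p = 0.052). That of BGIOSGA031385 was lost without BT1 replicate 2, BT3 replicate 2 or BT3 replicate 3 (0.087, 0.064 and 0.12) and stood at -3.13 without BT3 replicate 1. That of BGIOSGA013244 was lost without BT1 replicate 1, BT1 replicate 2 or BT3 replicate 3 (0.073, 0.11 and 0.12). That of BGIOSGA001951 held only without BT1 replicate 3 (0.074 to 0.14 without the others).

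The MYB factor BGIOSGA019054 fell between the first and the third day. It had 14.8, 9.69 and 10.8 FPKM in BT3 and 205, 121 and 357 FPKM in BT1, a log2 fold change of -4.29 ± 0.45 (adjusted p = 0.0055, edgeR), and BT1 overlapped the controls. BGIOSGA005283, the other MYB factor, had 9.41, 0.933 and 1.45 FPKM in BT3 and 36.2, 27.3 and 92.6 FPKM in BT1 (-3.67 ± 0.99, adjusted p = 0.045), and its BT1 libraries lay below the controls. The call of BGIOSGA019054 held without each library in turn. That of BGIOSGA005283 held only without BT3 replicate 1 (-5.51, adjusted p = 0.014; 0.075 to 0.15 without the others).

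After the cold, plants recovered at room temperature for 1 day (BT3H1) or 3 days (BT3H3), with 3 libraries each; these groups were not tested here and their levels are a description. BGIOSGA019054 had 449.8, 404 and 329 FPKM in BT3H1 and 1525, 1203 and 479 FPKM in BT3H3, and every one of these libraries was above the control range of 93.9 to 169 FPKM. BGIOSGA005283 had 581, 384 and 295 FPKM in BT3H1 and 2975, 1959.8 and 1166 FPKM in BT3H3, also above all its controls. The ubiquitin transferase BGIOSGA015677 had 193, 179 and 170.5 FPKM in BT3H1 and 656, 765 and 1585 FPKM in BT3H3. These 3 genes, low in BT3, lay above the control in every recovery library. Of the genes that had risen in the cold, the amylase BGIOSGA011829 had 81.4, 54.0 and 33.7 FPKM in BT3H1 and 16.4, 20.2 and 71.6 FPKM in BT3H3. Trehalase (BGIOSGA031535) had 18.0, 8.99 and 5.36 FPKM in BT3H1 and 2.39, 3.95 and 12.9 FPKM in BT3H3. Every recovery library of both genes was below every BT3 library. This did not hold for every gene that had risen. The AP2 domain factor BGIOSGA029415 had 76.7, 123 and 252 FPKM in BT3H3, within the range of BT3, and the sensor BGIOSGA009973 had 67.9, 74.1 and 65.2 FPKM in BT3H1, also within it. The polyamine oxidase BGIOSGA014122, low in BT3, stayed low, with 16.5, 18.7 and 22.3 FPKM in BT3H1 and 12.1, 11.9 and 10.7 FPKM in BT3H3.

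**Figure D5:**
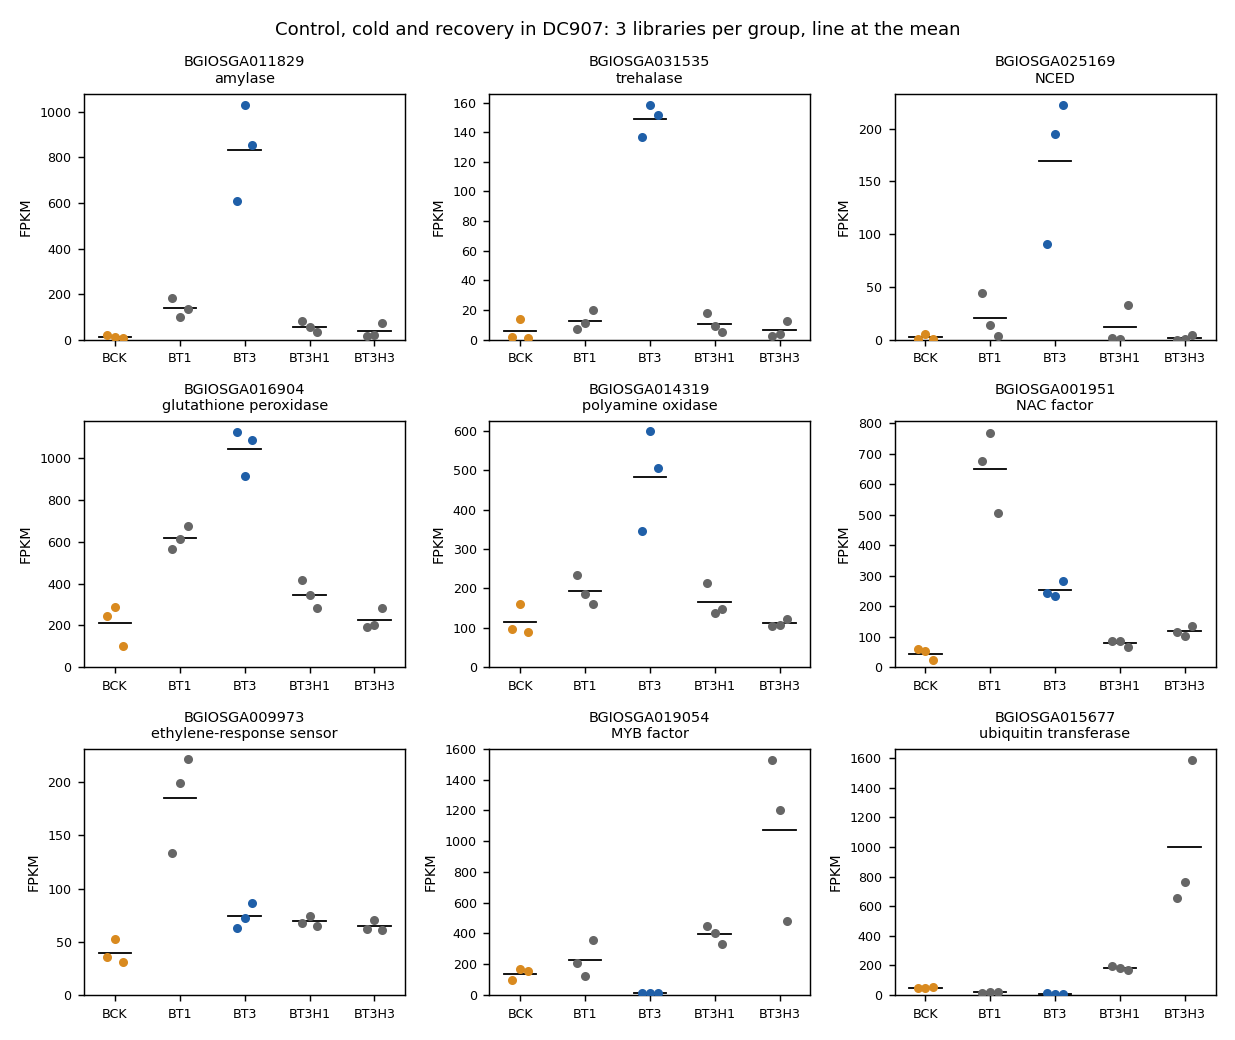
FPKM of 9 genes in DC907 control plants (BCK), after 1 and 3 days of cold (BT1, BT3) and after 1 and 3 days of recovery from 3 days of cold (BT3H1, BT3H3); points are the 3 libraries of a group and lines their mean, on linear axes from 0. The amylase, trehalase, NCED, glutathione peroxidase and polyamine oxidase genes are highest in BT3, the NAC factor and the sensor in BT1, and the MYB factor and the ubiquitin transferase in BT3H3.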

How the data were processed

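RNA-seq libraries of DC907 stems and leaves were analysed from the tables of the authors. Per the labels and the paper's methods, the authors used HISAT2 for mapping (indica rice, Ensembl Plants release 41), Cufflinks for new genes and DESeq for tests; versions and the counting program are not given in the sources used here. The deposited raw counts per gene were used for tests, and the FPKM that the authors deposited, which divide each count by gene length and by the library total, for levels. Columns of the authors' own comparisons were not used.

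Counts were tested with edgeR 4.0.16 (R 4.3.3): TMM, filterByExpr, a robust quasi-likelihood fit of the 2 groups compared, and Benjamini-Hochberg adjustment over all tested genes, at 0.05. Standard errors are the log2 fold change over the square root of F. The code was run on simulated counts with the same spread for every gene and no outlying library. That setting is unlike these data, so it is no check of the calls given here. Alternatives were DESeq2 1.42.0, RLE scaling, leaving out the filter, a minimum of 10 counts per library, 21 or 36 libraries in 1 fit, a log2 fold change of at least 1, a replicate block, and leaving out each library. Means were compared by two-sided exact permutation tests. The 6 libraries held 16349662 to 17917900 counts. Counting error was not compared with the spread between 3 libraries, and it weighs most for genes with few counts.

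Genes were named by rule: those with a function in the study's text, its 14 primer genes, the 10 largest changes each way (groups not overlapping, at least 10 FPKM in the higher group), the 5 genes with the most counts per group, the 3 largest new genes each way, and the 5 highest genes at 0 counts in the other group. The largest changes, the new genes and the genes at 0 counts were taken among genes with an adjusted p under 0.05. Genes and lists were chosen with earlier results of these data known.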

Additional observations from a re-analysis of the deposited data

Results flagged for a closer look

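Of the 40 tested genes that the study names or gives primers for, 19 differed between 3 days and 1 day of cold. The difference was tested directly between BT3 and BT1 (edgeR, adjusted p under 0.05, which 17.5% of all genes tested reached). In the fit with replicate block, 13 of these 19 calls were lost (edgeR, adjusted p of 0.054 to 0.19). Of these 19 calls, 14 were lost without BT3 replicate 3 (adjusted p of 0.052 to 0.16), among them 11 that were also lost without BT1 replicate 2. The call of BGIOSGA014319 was lost without each of the 6 libraries in turn, and those of BGIOSGA001951, BGIOSGA005283, BGIOSGA009308 and BGIOSGA014893 without 5 of them. The study chose these genes on the same samples.

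The log2 fold change, BT3 over BT1, was positive for 10 of them: CKX8 BGIOSGA016782 (6.41), BGIOSGA026730 (5.32), BGIOSGA016308 (3.66), trehalase BGIOSGA031535 (3.48), amylase BGIOSGA011829 (2.49), C3H factor BGIOSGA004750 (2.24), hub gene BGIOSGA002846 (2.07), glutathione S-transferase BGIOSGA033329 (1.97), BGIOSGA014893 (1.22) and polyamine oxidase BGIOSGA014319 (1.21). It was negative for 9: the MYB factors BGIOSGA019054 (-4.29) and BGIOSGA005283 (-3.67), BGIOSGA002927 (-4.27), monooxygenase BGIOSGA015673 (-2.79), amylase BGIOSGA031385 (-2.49), NAC factor BGIOSGA001951 (-1.46), NCED BGIOSGA013244 (-1.44) and the ethylene-response sensors BGIOSGA009308 (-1.41) and BGIOSGA009973 (-1.40).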

How the results depend on the processing

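For BT3 against BCK, calls numbered 7816 with RLE size factors, 7351 without a filter, 6682 with at least 10 counts in every library, 7559 at a log2 fold change of at least 1, 10792 with DESeq2 and 11263 with 36 libraries in 1 fit, where 6076 genes were lower. With 21 DC907 libraries in 1 fit there were 12551, of which 6833 were lower. Leaving out 1 library gave 928 to 7761 calls, 691 to 4034 higher and 237 to 3727 lower. For BT3 against BT1, 21 libraries gave 7234 calls (3843 higher, 3391 lower), DESeq2 gave 6802 (3389 higher, 3413 lower), and leaving out 1 library gave 217 to 5415, 176 to 2807 higher and 41 to 2608 lower. No call of a named gene turned its direction under these settings. Of the 77 named genes tested against BCK, 77 kept their side of the threshold with RLE size factors and 72 with DESeq2, where the other 5 gained a call; 4 lost it without a filter. The cause of these differences was not tested.

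Samples with the same replicate number deviated together with correlations of 0.54, 0.15 and -0.04 between BT3 and BCK and of -0.49, -0.18 and -0.19 between BT3 and BT1, so the numbers were not taken as pairs, and not every sample correlated best with its own number. A fit with replicate block called 7215 genes against BCK (3708 higher, 3507 lower) and 244 against BT1 (178 higher, 66 lower). The difference in genes at 1 FPKM or more, BT3 minus BCK, was -107, and was 168 at 0.5 FPKM, and -789 to 489 with 1 library left out; its sign changed without BT3 replicate 1 (297) and without BCK replicate 2 (489). The difference in the share of the top 100 genes was -11.3 to -4.39 percentage points with 1 library left out.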
